A study of Mus musculus with 14 samples.

Results

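These are the 3357 regions of the genome that were accessible in the mouse small cell lung cancer line 1373M1 and in none of 6 other lines of the same tumor model. Accessibility was read by ATAC-seq: an enzyme cuts and tags DNA where it is not packed into nucleosomes, and peaks mark the places where tagged fragments pile up. Merging the peaks of 14 libraries on chromosomes 1 to 19 and X, where they overlapped by 1 bp or more, gave 177577 regions. A line was open at a region if each of its libraries had a peak there and closed if none had. Of 57493 regions open in 1373M1, 3357 were closed in all 12 libraries of the other lines, which is 5.84% of its open regions and 1.89% of all regions. Leaving out the 1 Mb of chromosome 4 that holds the oncogene Mycl, a segment of very high background, 3340 remained. The regions were chosen by the peak calls themselves, so their presence in 1373M1 and absence elsewhere are a description and carry no test.

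Line 1373M1 came from a liver metastasis of the RPR2 genotype, as the labels write it. RPR2 is the name used in the field for mice in which the tumor suppressor genes Rb1, Trp53 and Rbl2 are conditional. The other RPR2 lines, 12N1G and N2N1G, came from lymph node metastases. The remaining 4 lines were RPR2;Nfibf/f and so also carried conditional alleles of Nfib: 1398M1 and 1399M4 were grown from metastases in the liver, 1398P2 and 1399P1 from tumors in the lung. Nfib encodes a transcription factor of the nuclear factor I family. Each line had 2 libraries, made by the OMNI-ATAC protocol from cultured suspension cells, and the labels do not say whether those were separate cultures. The animal's age, how Cre was delivered and whether a line is 1 clone are not stated in the labels. Line 1373M1 is the single RPR2 liver metastasis line, so what is particular to the line, its tissue or its genotype cannot be told apart.

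Small cell lung cancer is a neuroendocrine tumor: its cells carry the secretory and synaptic gene programs of pulmonary neuroendocrine cells. Promoters, where transcription starts, tend to be open in many cell types, while open sites far from promoters are often enhancers, which differ between cell types and between tumors. Whether any region described here acts as an enhancer was not measured. The promoters of 11 of 12 neuroendocrine genes in the reference promoter table were open in 1373M1, among them Chga, Syp, Dll3 and Neurod1, and the promoter of Nkx2-1 had no peak. None of 9 hepatocyte promoters (Alb, Apoa1 and Hnf4a among them) and none of 7 lymphocyte and myeloid promoters (Ptprc and Cd68 among them) had a peak in either 1373M1 library. Of 5 fibroblast and endothelial promoters, those of Kdr and Tek were open, while Col1a2, Col3a1 and Pdgfra had no peak. Over the lines, 1 to 3 of these 5 were open. Of 7 lung epithelial promoters, 3 were open in 1373M1 and 3 in each other line; in 1373M1 these were Foxa1 and Foxa2, forkhead factors of endoderm, and Hopx, while Sftpb, Sftpa1 and Ager had no peak.

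A total of 51 regions, 0.368% of all regions over a promoter, lay over promoters of 51 genes, 35 of them protein-coding. The sequences of 6 such promoters are shown because they span the kinds of gene found there: a germline homeobox cluster and another gene family on the X chromosome, an amino acid transporter, and a pair of neural transcription factors. All are from RefSeq, build GRCm38.p6, 5′ to 3′ on the strand of the gene, from 250 bases before to 50 bases after the start. Capitals mark matches to the searched motifs of 6 or more letters, read on both strands.
Rhox2e, chrX:37530218-37530517, plus strand: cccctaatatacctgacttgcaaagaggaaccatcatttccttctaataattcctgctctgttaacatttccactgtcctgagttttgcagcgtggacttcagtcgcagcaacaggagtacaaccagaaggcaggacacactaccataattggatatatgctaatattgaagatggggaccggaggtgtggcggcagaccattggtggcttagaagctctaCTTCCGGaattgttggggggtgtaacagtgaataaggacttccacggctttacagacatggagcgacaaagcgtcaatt
Rhox2g, chrX:37643421-37643720, minus strand: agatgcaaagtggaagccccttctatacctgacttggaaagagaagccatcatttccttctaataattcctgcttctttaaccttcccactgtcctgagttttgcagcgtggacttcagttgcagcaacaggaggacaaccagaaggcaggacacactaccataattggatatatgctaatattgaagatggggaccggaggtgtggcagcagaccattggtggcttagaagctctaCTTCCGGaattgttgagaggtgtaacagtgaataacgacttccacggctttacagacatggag
Xlr, chrX:53797657-53797956, minus strand: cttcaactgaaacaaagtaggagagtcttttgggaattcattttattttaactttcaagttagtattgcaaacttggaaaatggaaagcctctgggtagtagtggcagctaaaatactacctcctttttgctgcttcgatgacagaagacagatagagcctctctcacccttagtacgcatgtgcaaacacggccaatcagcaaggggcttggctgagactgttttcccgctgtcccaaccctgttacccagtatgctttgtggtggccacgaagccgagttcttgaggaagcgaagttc
Slc38a4, chr15:97055907-97056206, minus strand: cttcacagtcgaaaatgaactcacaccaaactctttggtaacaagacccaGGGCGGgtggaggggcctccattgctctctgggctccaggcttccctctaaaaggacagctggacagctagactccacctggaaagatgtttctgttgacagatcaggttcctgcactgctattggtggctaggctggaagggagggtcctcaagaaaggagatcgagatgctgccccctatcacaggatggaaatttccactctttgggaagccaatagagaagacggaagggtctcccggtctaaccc
Neurod6, chr6:55681214-55681513, minus strand: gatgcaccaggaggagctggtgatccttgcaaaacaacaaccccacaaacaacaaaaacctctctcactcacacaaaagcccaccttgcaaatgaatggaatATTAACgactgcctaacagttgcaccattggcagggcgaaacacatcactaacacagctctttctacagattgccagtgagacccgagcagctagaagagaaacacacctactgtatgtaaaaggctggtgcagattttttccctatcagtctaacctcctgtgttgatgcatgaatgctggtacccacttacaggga
Zic1, chr9:91365719-91366018, minus strand: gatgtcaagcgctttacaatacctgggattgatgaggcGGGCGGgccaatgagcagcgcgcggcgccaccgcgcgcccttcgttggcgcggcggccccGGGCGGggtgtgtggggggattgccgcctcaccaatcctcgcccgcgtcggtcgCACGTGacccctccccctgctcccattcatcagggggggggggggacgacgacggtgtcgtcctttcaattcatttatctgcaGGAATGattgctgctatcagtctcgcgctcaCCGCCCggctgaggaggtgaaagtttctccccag

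Both Rhox2 promoters carry the ETS core CCGGAAG, read as CTTCCGG, in windows that are 85.2% identical. The Zic1 promoter is rich in CpG, with 31 such pairs and 3 GC boxes (GGGCGG), a MYC E-box (CACGTG) and a TEAD match (GGAATG). The Neurod6 promoter has 3 CpG pairs and that of Slc38a4 has 5, the latter with 1 GC box. No motif of 6 or more letters from the 15 searched was found in the Xlr window.

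**Figure D1:**
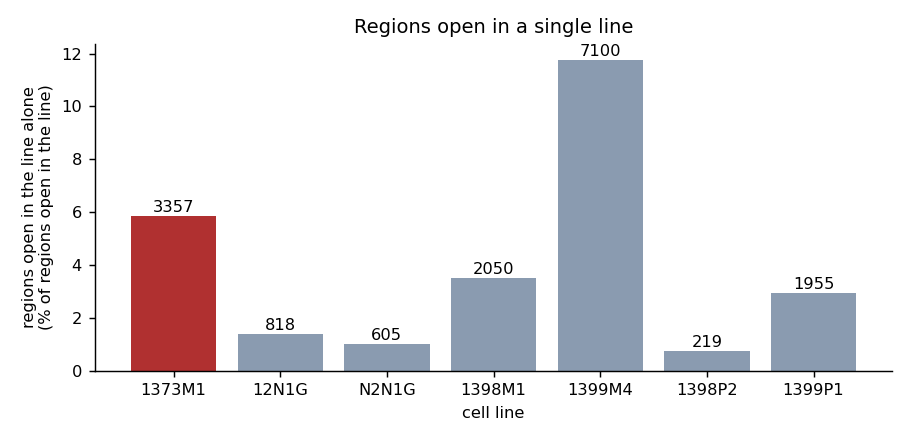
Regions open in 1 line and closed in the other 6, by line, as a percentage of the regions open in that line; the number over each bar is the count of regions. Line 1373M1 (red) had 3357 such regions (5.84%), fewer than 1399M4 with 7100 and more than each of the other 5 lines.

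Regions open in a single line were not particular to 1373M1. Line 1399M4 had 7100 (11.8% of its open regions), 1398M1 had 2050 (3.51%) and 1399P1 had 1955 (2.94%). The lymph node lines of the same genotype had 818 (12N1G, 1.38%) and 605 (N2N1G, 1.03%). These counts depend on which lines are in the set, since a region that any pair of lines shares counts for neither. The lowest count, 219 or 0.757%, was that of 1398P2, whose replicate 2 had 33519 peaks against 64975 to 84199 in the other 13 libraries.

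Peaks in the 3357 regions were low. The median height at the summit was 15 fragments in replicate 1 and 14 in replicate 2, against 28 and 25 over all regions open in 1373M1 and 67 and 58 over the 17795 regions open in all 7 lines. From the 10th to the 90th percentile, heights ran from 8 to 33 and from 8 to 29 fragments. Ranked by fold enrichment within its library, the median region stood at percentile 33.5 in replicate 1 and 30.1 in replicate 2, where 100 is the strongest peak. The median width was 363 bp, against 753 bp over all regions open in the line. A low peak is more easily missed in another library, so a closed call here means closed at the depth of that library. That depth, taken as the lowest background of the library in fragments per bp, was 0.776 and 0.692 in the 1373M1 libraries and 0.507 to 1.13 in the others.

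**Figure D2:**
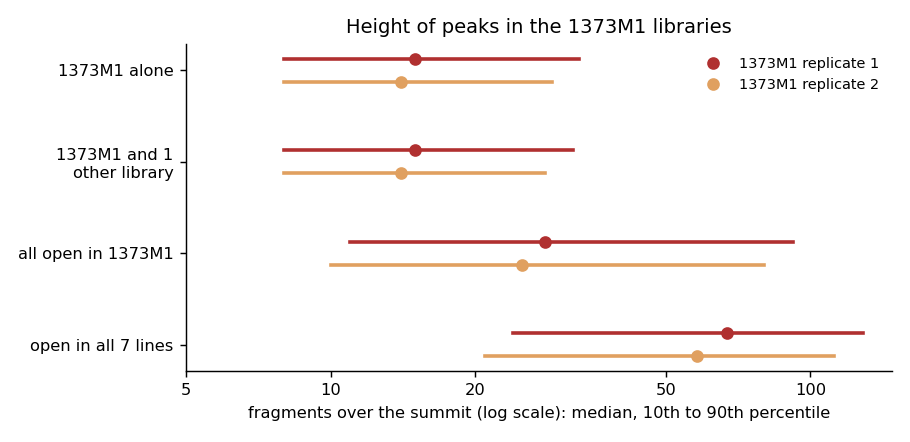
Fragments over the peak summit (log scale) in each 1373M1 library, for 4 sets of regions; points are medians and lines run from the 10th to the 90th percentile. The median of 15 and 14 fragments in the regions open in 1373M1 alone lies under the 28 and 25 of all regions open in the line.

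Regions just outside the threshold had peaks of the same height. A further 1708 regions were open in 1373M1 with a peak in exactly 1 of the other 12 libraries, and their median heights were the same 15 and 14 fragments. In that 1 library, the peak had a median -log10 q of 4.38, against a median of 12.2 over all peaks of the other libraries. Replicate 2 of 1398M1 supplied 444 of these 1708 peaks and each remaining library between 3 and 193. On the other side, 2612 regions had a peak in replicate 1 of 1373M1 and in no other library, and 1614 in replicate 2 alone. Among lines, 1373M1 shared 655 regions with 1398M1 and no other line and 360 with 1399M4, both from liver metastases of the other genotype. It shared 125 with N2N1G and 99 with 12N1G, 98 with 1399P1 and 8 with 1398P2. These counts are out of 57493 regions open in 1373M1. A region shared with more than 1 other line, such as both lymph node lines, counts for no pair. Line 1398P2 had 28947 open regions, against 58459 to 66396 in the other lines compared with 1373M1. Whether tissue plays a part in these counts was not tested.

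Nearly all the regions lay away from promoters. Outside chromosome 18, which the promoter table does not cover, 51 of 3236 lay over a promoter, a share of 1.58% (95% Wilson interval 1.20 to 2.07, counting error alone). Of all regions open in 1373M1 the share was 19.7%, and of those open in all 7 lines 51.2%. The median distance to a transcription start was 33.2 kb, against 17.7 kb and 0.649 kb in those sets, and 77.9% lay more than 10 kb from any start. Inside a protein-coding gene lay 53.4% (51.8 to 55.1) and inside any gene 61.8%, against 62.0% and 70.6% of all regions open in the line. The table gives gene extents without exons, so introns and exons are not told apart. Regions open in another line alone were placed much the same: between 0.76% (12N1G) and 2.58% of them lay over a promoter.

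The regions that ranked highest within both libraries were distal. The highest lay in Fmn2, an actin-nucleating formin of the nervous system, at chr1:174701899-174702304, with 40 and 47 fragments over a background of 1.23 and 1.69. The next lay in Peli2, an E3 ubiquitin ligase of innate immune signaling, with 57 and 52 fragments, 18464 bp from a start site. A region at chr5:71987023-71987493 in Gabrb1, a subunit of the GABA-A receptor, had 58 and 43 fragments. In Lsamp, a neuronal adhesion protein, a region at chr16:42134377-42134805 had 34 in each library. The remaining 6 of the top 10 lay at or nearest to Grik2, Lilr4b, Gtpbp4, Dpf3, Igsf11 and Siglec1. The Grik2 region was 347683 bp from that gene, so the nearest protein-coding gene is a label of place and not a target. Averaged over both libraries, the 10 stood at percentiles 93.4 to 97.7, with heights of 29 to 88 fragments.

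In and within 10 kb of protein-coding genes lay 2069 of the 3357 regions (61.6%). Of 21627 such genes, 1883 had at least 1 region (8.71%), 352 had at least 2 and 110 at least 3. Long genes had them more often: with genes split into 5 equal classes by length, 2.17% of the shortest class had one and 23.5% of the longest, those over 57.8 kb. The median length was 66.1 kb for genes with a region and 17.3 kb for all, so a count per gene follows its length. Among genes with a region and an entry in the promoter table, 930 of 1462 had a promoter peak in all 14 libraries (63.6%) and 190 had none in any, against 8984 and 5388 of all 17273 genes in the table.

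Tenm2, a teneurin that joins neurons across the synapse, had 10 regions along its 1230 kb, with heights of 9 to 29 fragments in replicate 1 and 5 to 26 in replicate 2. The gene held 47 open regions in 1373M1 and between 5 and 33 in the other lines. Foxp2, a forkhead repressor best known for its role in vocal learning circuits, had 7 regions inside the gene. The heights from the lower to the upper end of Foxp2 were 13, 19, 13, 15, 8, 18 and 28 fragments in replicate 1 and 14, 14, 13, 23, 6, 13 and 19 in replicate 2. Foxp2 had 14 open regions in 1373M1 against 7 in 1399M4, 5 in 12N1G, 4 in N2N1G, 2 each in 1398M1 and 1399P1 and none in 1398P2. Of the 7, 6 formed a run (at least 4 regions each within 50 kb of the next) at chr6:15151726-15300921; outside the chromosome 4 segment only the Rhox cluster had a run of as many regions. The background of the Foxp2 run was 1.22 and 1.24 times the floor, the lowest background of the library. Over the summits of each 1373M1 library the median was 2.64 and 2.80 times.

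Rora, a nuclear receptor of the circadian clock and of cerebellar development, had 6 regions, and the promoter of Rora was open in all 14 libraries. The tallest Rora region reached 51 and 48 fragments. Lsamp and Lrmda, a melanocyte differentiation gene, had 6 regions each, along 2197 kb and 1037 kb, as did Nav3, a neuron navigator. Slc35f1, a solute carrier family member, also had 6 in 421 kb and held 13 open regions in 1373M1 against 0 to 5 elsewhere. Slit1, a secreted repellent that steers axons, had 5, with 21 open regions against 1 to 15. Robo1, a receptor for SLIT proteins, had 5 and 23 open regions against 8 to 20. Gse1, Dlgap2, Npas3 and Dpp6 had 5 each. Of the genes with the most regions, Slc35f1 and Nav3 are on chromosome 10 and Gpc3 is on X, the chromosomes whose background in 1373M1 is described below.

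**Figure D3:**
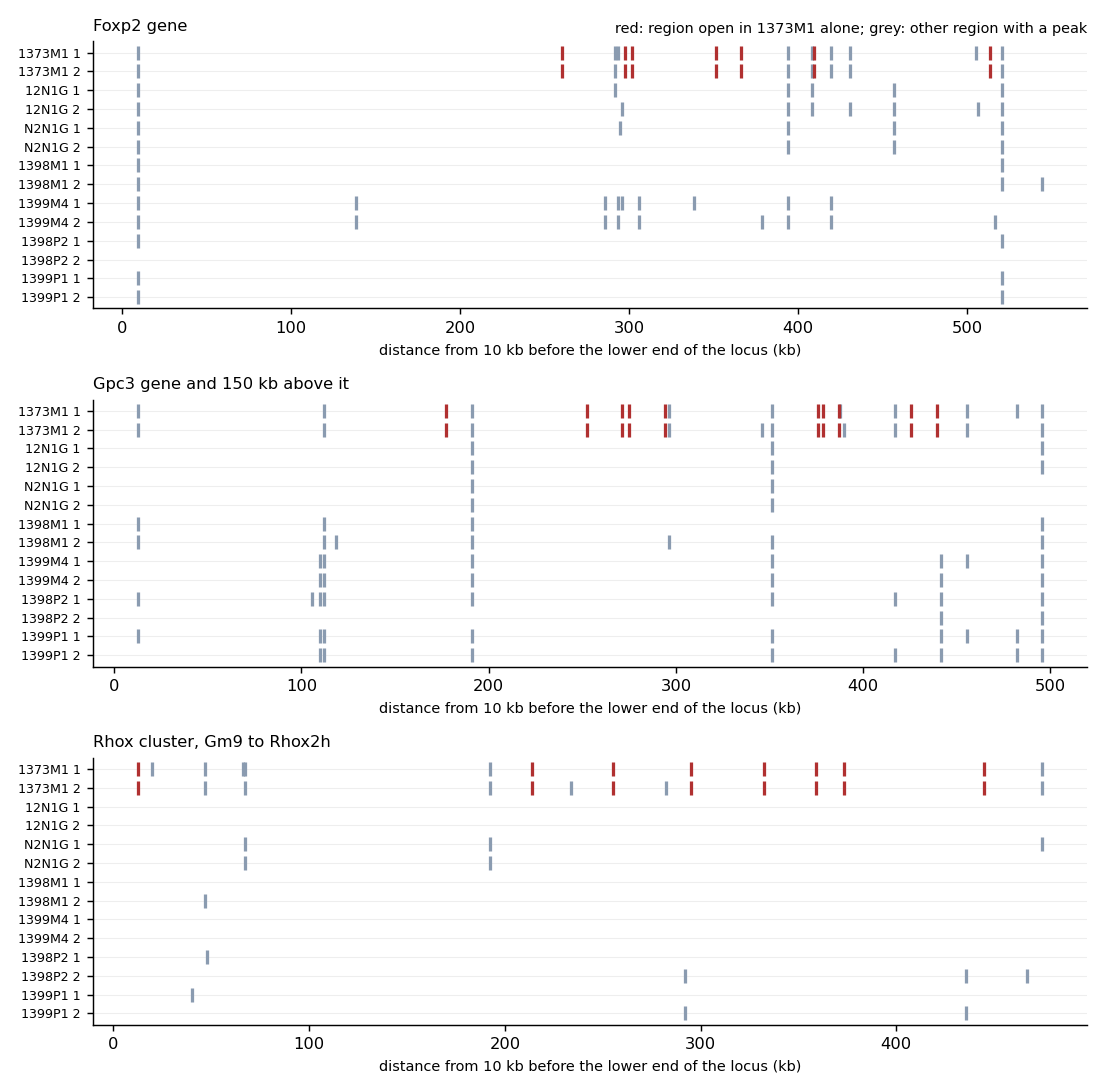
Peaks by library (rows) along Foxp2, Gpc3 with 150 kb above it, and the Rhox cluster; the horizontal axis is the distance in kb from 10 kb before the lower end of the locus, red ticks are regions open in 1373M1 alone and grey ticks other regions. At the Rhox cluster each 1373M1 library had peaks in 14 regions and no other library in more than 3.

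Gpc3, a cell-surface heparan sulfate proteoglycan that is an oncofetal marker of liver cancer, had 5 regions on the X chromosome. The Gpc3 regions had 11, 41, 10, 10 and 28 fragments in replicate 1 and 14, 26, 8, 10 and 19 in replicate 2, from the lower to the upper end. A further 5 regions lay just above the gene at chrX:52638246-52702153, where none of the other 6 lines had an open region. Over Gpc3 and the 150 kb above it, each 1373M1 library had peaks in 20 regions and each of the other 12 in 2 to 9. The Gpc3 promoter itself had a peak in 12 of 14 libraries. Along this locus the regions of 1373M1 thus flank a promoter that most lines share.

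Among the 35 protein-coding genes whose promoter was covered, 10 were on the X chromosome (28.6%), against 3.43% of the 10310 genes with a promoter open in 1373M1. Rhox2b, Rhox2c, Rhox2d, Rhox2e, Rhox2g and Rhox4e belong to the reproductive homeobox cluster, whose genes act mainly in testis, ovary and placenta. Rhox2e had 36 and 34 fragments, Rhox2g 48 and 41, Rhox2d 29 and 22, Rhox2b 13 and 18, Rhox2c 10 and 11 and Rhox4e 8 and 6. Of 27 Rhox promoters in the table, these 6 were open in 1373M1 alone, 4 had a peak in another library as well and 16 had a peak in no library. The cluster arose by repeated duplication: the promoters of 7 Rhox2 copies were 74.6 to 99.7% identical in pairs, Rhox2c and Rhox2e 99.3%. Reads of near-identical copies can be placed on either, so which copies were open is uncertain, while the cluster as a whole had peaks in 14 regions in each 1373M1 library. The other X promoters were those of Gm9 beside the cluster (22 and 17 fragments), Xlr, a lymphocyte-regulated family also active in germ cells (20 and 17), Rtl9, a retrotransposon-derived gene (18 and 11), and 3830403N18Rik (14 and 9).

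On the autosomes, Slc38a4, an imprinted system A amino acid transporter, had 18 and 12 fragments, and none of its other promoters had a peak in any library. Zic1, a zinc finger factor of the dorsal neural tube, had 19 and 27, and Neurod6, a bHLH factor of cortical neurons, 19 and 22. Hoxa5, a factor of axial patterning and lung development, had 10 and 6. The promoter of Gdnf, a survival factor for neurons and ligand of RET, was touched over 11 bases by a region of 14 and 8 fragments. Ccnb1ip1, a meiotic crossover regulator, had 14 and 13, and Gpat2, a testis-enriched acyltransferase, 12 and 6. Tuba3a, an alpha-tubulin of testis, had 7 and 9. Tpst2, Lrp8, Kcnip1, Mical3 and Slc6a9 each had another promoter with a peak in all 14 libraries, so for those 5 an alternative start was covered in an otherwise open gene. Of the 35 genes, 22 have 1 promoter in the table, and for these the region covered the sole listed start.

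Covered promoters were close to promoters in general in their median number of CpG pairs, but spread over a narrower range. The median was 7.5 in 300 bases over the 36 promoters of the 35 genes and 7 in all 32585 promoters of the table. The lower and upper quartiles were 5 and 10.5 in the 36 promoters and 3 and 20 in all promoters. Promoters open in all 7 lines had a median of 23. The GC box was in 30.6%, against 69.3% of promoters open in all lines and 35.9% of all. The CCAAT box (CCAAT, both strands) was in 26 of 36, or 72.2%, and in 20 of 30 without the Rhox copies, against 37.6% of all promoters. TATAAA was in none of the 36, against 5.58% of promoters open in all lines and 13.7% of all promoters. The NFI motif (TTGGC) was in 55.6% and in 46.9% of all. With 36 promoters, 6 of them near copies, these shares are a description of the letters and were not tested.

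Genes whose ends were covered, within 1 kb or over a promoter, numbered 35 at a promoter, 20 at another 5′ end, 62 at a 3′ end and 56 at an end whose direction the table does not give. The highest ranked of these lay between the ends of Epb41 and Tmem200b, with 68 and 81 fragments. Next came Ptprq, an inner ear phosphatase (26 and 24). Also among the 15 highest were Mmrn2, an endothelial matrix protein (26 and 30), 4 genes of the X promoters above, and Gm32280, Plbd2, Sds, Dcaf8l, Tcp10b, Flrt2 and Ccdc32. Flrt2, a ligand in axon repulsion, had 16 and 14 fragments at its 3′ end.

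Genes were also read by lists of families and programs, which earlier results of these data helped to choose. At all protein-coding genes, 4.51% of the regions open in 1373M1 in the gene or within 10 kb were open there alone, a region near several genes counting at each, and lists are described against that share. In the axon guidance list of ligands and receptors, 35 of 80 genes had at least 1 region (8.71% of all genes had), and 66 of 555 open regions were open in 1373M1 alone, 11.9%. Slit1 and Robo1 led with 5, then Ephb2 and Epha6, ephrin receptors, with 4 and Ntn1, a netrin, with 3. The axon guidance share was above that of all genes in the single-line regions of each of the other 6 lines as well, at 1.27 to 2.80 times it and 2.64 times in 1373M1. These genes are long, with a median of 73.3 kb, and the 4 Ephb2 regions lie where background was high: the tallest rose to 100 and 90 fragments over a background of 40.2 and 35.2.

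**Figure D4:**
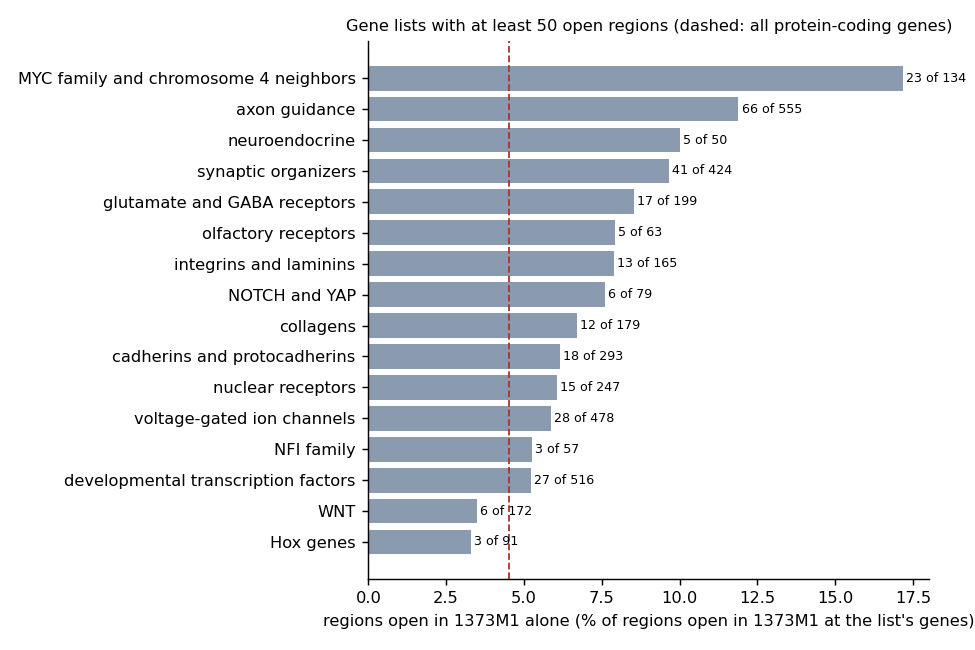
Share of regions open in 1373M1 that were open there alone, at the genes of 16 of 23 lists, those with at least 50 open regions; labels give the counts and the dashed line is all protein-coding genes at 4.51%. Axon guidance stood at 66 of 555 and Hox genes at 3 of 91, and 22 of the 23 regions of the MYC family list lie in the chromosome 4 segment.

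Synaptic organizers, the adhesion and scaffold proteins of synapses, had 16 of 38 genes with a region and 41 of 424 open regions (9.67%), led by Tenm2, Dlgap2 and Nrxn3. Glutamate and GABA receptors had 8 of 47 genes and 17 of 199 regions (8.54%), with Grid1 at 4 and Gabbr2 and Grik2 at 3. Voltage-gated ion channels had 19 of 84 genes and 28 of 478 regions (5.86%), near the background. Integrins and laminins had 8 of 37 and 13 of 165 (7.88%), where Lama2 and Lama4, laminin chains of basement membranes, had 3 each and both lie on chromosome 10. Developmental transcription factors had 17 of 162 genes and 27 of 516 regions (5.23%), 7 of them in Foxp2. Cadherins and protocadherins had 13 of 46 and 18 of 293 (6.14%), collagens 11 of 44 and 12 of 179 (6.70%), nuclear receptors 9 of 47 and 15 of 247 (6.07%). Relative to all genes, the share of synaptic organizers was 2.15 in 1373M1 and 0 to 2.96 in the single-line regions of the other 6 lines. That ratio was 1.90 against 0 to 3.27 for glutamate and GABA receptors, and 1.36 against 0 to 3.08 for cadherins and protocadherins. For integrins and laminins it was 1.75 against 0.53 to 3.44, and for developmental transcription factors 1.16 against 0.33 to 0.94. Median gene length was 380 kb for synaptic organizers, 183 kb for glutamate and GABA receptors and 113 kb for cadherins and protocadherins. Over all genes it was 17.3 kb. Per Mb of gene and 10 kb either side, all genes had 1.64 regions, glutamate and GABA receptors 1.27 and cadherins and protocadherins 1.45. Synaptic organizers were slightly above all genes, while axon guidance had 3.48, integrins and laminins 3.08 and developmental transcription factors 2.27. WNT genes, with 6 of 172 regions (3.49%), and Hox genes, with 3 of 91 (3.30%), were below the share of all genes, on small counts. For WNT genes the ratio to all genes was 0.77 in 1373M1 and 0 to 1.21 in the other 6 lines. The 3 Hox genes share a single region at the Hoxa5 promoter. The 14 other lists of the 16 were above the share of all genes, some of them close to it, as was the nuclear factor I list at 5.26%. Of the 23 counted in the MYC family list, 1 lay outside the chromosome 4 segment. Ncam1 held 4 of the 5 counted in the neuroendocrine list.

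Neuroendocrine genes had 5 regions among 50 open ones, at Ncam1 (4), the adhesion molecule CD56, and at Calca (1), the gene of calcitonin and CGRP. The Ncam1 regions had 11, 12, 19 and 51 fragments in replicate 1. Of the nuclear factor I genes, Nfia, Nfib and Nfix had 1 region each, or 3 of 57 open ones (5.26%, against 4.51% at all genes). The region near Nfib had 14 and 14 fragments and lay outside the gene body. No region lay at any of 12 hepatocyte genes or 12 lung epithelial genes, where 16 and 28 regions were open in 1373M1. Fibroblast and endothelial genes had 4 of 33 open regions (12.1%), at Cdh5, Pecam1 and Pdgfrb. The lymphocyte and myeloid list had 1 of 21 (4.76%), at Pax5. NOTCH and YAP genes had 6 of 79 open regions (7.59%), with Tead1 at 2 and Notch2 at 1, the Notch2 region reaching 50 and 42 fragments. The epithelial-mesenchymal factors Snai1, Zeb1, Zeb2 and Grhl2 had 1 each, or 4 of 43 open regions of their list (9.30%). The tuft-like list had 1 of 26 (3.85%), at Dclk1.

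The regions were spread over every chromosome, at 4.34 to 7.10% of the regions open there on 18 autosomes. Chromosome 10 had 292 of 3407 (8.57%) and the X chromosome 164 of 1364 (12%). Relative to the genome-wide share of each line, the X share was 2.06 in 1373M1 and 0.69 to 1.25 in the other 6 lines, and the chromosome 10 share was 1.47 and 0.77 to 1.07. The local background moved with it. At regions open in all 7 lines, the median background of chromosome 10 relative to that of the autosomes was 1.42 in both 1373M1 libraries and 0.95 to 1.04 in the other 12. On X it was 1.19 and 1.22 in 1373M1 and 0.66 to 0.80 in the others. Chromosome 11 also stood above all others, at 1.13 in both against at most 1.11, with 196 of 3928 regions (4.99%). The part of the background in the counts of chromosomes 10 and X was not tested. Outside both chromosomes 2901 regions remained, 5.50% of those open there.

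**Figure D5:**
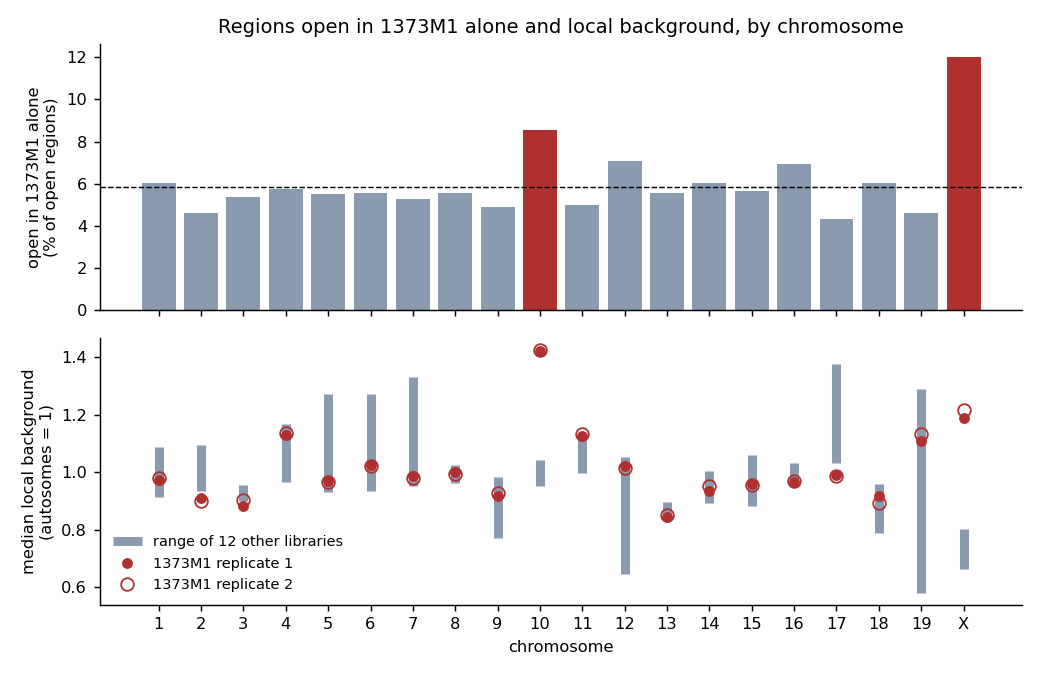
Upper panel: regions open in 1373M1 alone as a percentage of the regions open in 1373M1, by chromosome, with the genome-wide 5.84% dashed; lower panel: median local background of each chromosome at regions open in all 7 lines, relative to the autosomes, for the 1373M1 libraries (circles) and the range of the other 12 (bars). Chromosome 10 and X stand highest in the upper panel and above all other libraries in the lower one.

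Within X the regions gathered in 1 stretch. Between 34.2 and 68.4 Mb, 65 of 263 open regions (24.7%) were open in 1373M1 alone, against 5.81 to 12.3% in the other 4 of 5 equal parts of the chromosome. The background of that part was 1.23 in both 1373M1 libraries and 0.65 to 0.82 in the other 12. In the other 4 parts the 1373M1 libraries had 0.93 to 1.33, in each part above all 12 others. What the background adds to the counts of each part was not tested. The stretch from 34.2 to 68.4 Mb holds the Rhox cluster, Gpc3, Xlr and 3830403N18Rik. In the 1 Mb from 54 Mb, 11 of 14 open regions were open in 1373M1 alone, over a background of 0.46 and 0.53 times the median of the library. The same value ran from 0.37 to 0.46 in the 10 other libraries that had a peak there. On chromosome 10 the 5 parts held 7.53 to 11.0%, with no such stretch.

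Runs of close regions were few: 13 runs held 65 of the 3357 regions (1.94%), against 466 of 7100 in 1399M4 (6.56%) and 235 of 1955 in 1399P1 (12.0%). The longest, of 12, lies in the chromosome 4 segment over Bmp8a, Oxct2a and Macf1. Outside it, the 6 Foxp2 regions, 6 across the Rhox cluster, 5 above Gpc3 and 4 within Gpc3 were among the longest, and 4 of the 12 remaining runs were on X. The Rhox run had a background of 1.56 and 1.96 times the floor and the run above Gpc3 2.64 and 3.11 times.

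The 17 regions in the chromosome 4 segment, at 123313089 to 123789900, differed from the rest. Their median background was 37.6 and 43.0 times the floor, against 1.45 and 1.59 times over the other regions. Their median height was 97 and 83 fragments, yet by fold enrichment the median stood at percentile 0.231 and 0.0785 of the library. Over the whole segment, all 10 libraries from metastases had a median background of 32.1 to 74.2 times the floor. The 4 from lung tumors had 3.18 to 3.90 times. The 1 Mb bin that held all 17 regions differed between metastasis lines. Relative to the library's median, its background was 14.5 and 17.5 in 1373M1 and 15.1 to 29.4 in 12N1G, 1399M4 and N2N1G. In 1398M1 it was 2.58 and 3.23, and in the lung tumor libraries 0.917 to 1.34. Most of the 17 regions lay at Macf1, a microtubule and actin crosslinker (10), and Bmp8a, a bone morphogenetic protein (7). The windows of these genes overlap each other and that of Oxct2a (5). Whether the background produced these calls was not tested. Elsewhere, 24 bins of 1 Mb had a background in 1373M1 above that of the other libraries by 1.5 times or more. These bins held few open regions: 111 of the 57493 regions open in 1373M1, and 4 of the 3357 open there alone. From 136 Mb on chromosome 4, at Ephb2 and Htr1d, 11 regions lay over a background of 3.50 and 3.92 times the library's median, against 1.29 to 2.75 in the others.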

How the data were processed

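Peak lists of 14 libraries were analysed, 2 for each of 7 lines. The submitters' processing notes name the tools cutadapt 2.10, Bowtie2 and Picard, further SAMtools and MACS2, and as builds both GRCm38 and mm10. Settings, filters and whether reads were shifted for the transposase are not stated there. The fold enrichment of each summit, a ratio to local background, was deposited by the authors. The −log10 p and −log10 q of each summit were deposited as well, with a lowest −log10 q of 1.3 in every list. The score deposited by the authors was not used.

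MACS2 takes p from a Poisson distribution, so a summit's fold and p together fix how many fragments cover it (the pileup) and its local background. Both were solved for every summit with a −log10 p under 250, and 100% of pileups came out whole within 0.02. The lowest background of a library, its floor, stood for depth. On simulated data 4000 of 4000 pileups and 243 of 243 single-line sites were recovered, which checks the counting alone.

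Gene extents and promoters came from RefSeq tables of GRCm38.p6, which name no promoter on chromosome 18. Python 3.11.15, pandas 2.3.3 and SciPy 1.17.1 were used. The members, lists and alternatives were chosen with earlier results of these data known. Named were the 15 genes with the most regions, the 15 highest ranked at a gene end or promoter, the 10 highest ranked regions, up to 5 genes per list and the 5 longest runs; the promoters were described after their values were seen. Of the first set, 1 gene is not reported here. No test was made on the regions, since the peak calls chose them; Dixon's rule was applied to backgrounds and open region counts over the 7 lines. Intervals are 95% Wilson intervals and cover counting error alone.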

Additional observations from a re-analysis of the deposited data

Results flagged for a closer look

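The local background of each of the 20 chromosomes relative to the autosomes (mean of 2 libraries) and the number of open regions, 21 quantities in all, were examined over the 7 lines with Dixon's rule for a line apart from the other 6. Chance alone would mark about 1 in 20 such groups, and chromosomes of 1 library are not independent; 10 of the 21 were marked. Line 1373M1 was the line apart in 2 of them, as the highest of the 7: chromosome 10 at 1.42 and the X chromosome at 1.20, with gaps to the next line of 0.845 and 0.776 of the range. Line 1399M4 stood apart on chromosomes 5 (1.26, the highest), 9 (0.777, the lowest), 12 (0.656, the lowest) and 15 (1.05, the highest). Line 1398P2 did so on chromosomes 7 (1.33, the highest) and 19 (0.619, the lowest) and with 28947 open regions, the fewest. Line 1399P1 was lowest on chromosome 18, at 0.802. A chromosome on which 1 line stands apart in background was thus not particular to 1373M1. The shares of regions open in 1 line alone were left out here, because the peak calls chose those regions.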

How the results depend on the processing

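Alternatives gave 242 values for 8 results, and 232 stayed within 1.5 times of the count, or within the interval or spread of the value, that the report gives. Allowing a peak in 1 of the other 12 libraries raised the count of regions from 3357 to 5065. Keeping the same number of peaks in every library, the strongest by q, moved the most: it left 2222 regions, of which 4.16% instead of 2.66% lay within 1 kb of a start, 23 instead of 35 axon guidance genes, an X share of 1.42 instead of 2.06 times the genome-wide share, and a median background of 2.44 instead of 1.52 times the floor. Taking 50 kb around genes instead of 10 gave 3771 genes instead of 1883. The cause of these moves was not tested, other than that each rule admits more or fewer peaks or bases by its construction.

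Leaving out each library in turn gave 3360 to 6030 regions, 1886 to 3107 genes, 35 to 41 axon guidance genes, a background of 1.29 to 1.54 times the floor, 2.48 to 2.97% within 1 kb of a start, 52.5 to 53.7% inside a protein-coding gene, and shares of 1.39 to 1.51 (chromosome 10) and 1.99 to 2.09 (X) times the genome-wide share. The highest counts of regions and genes were without replicate 2 of 1373M1, since a single library then defines an open region; without replicate 1 there were 5016 regions. Without chromosomes 10 and X, an alternative chosen after seeing the data, 2901 regions remained. No paired analysis was possible because the result comes from no test. Depth limits what closed means: replicate 2 of 1398P2, the library with the lowest floor, had a floor of 0.507 fragments per bp.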

Other observations

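Of 4 Y-linked genes examined, none had a peak in 13 libraries and 1 had a peak in replicate 2 of 1398P2.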
